A study of Mus musculus with 61 samples.

Results

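The matricellular and small matrix proteins of mouse skeletal muscle were followed through 10 genes for secreted proteins, Postn, Tnc, Sparc, Bgn, Dcn, Lum, Fn1, Cilp, Aebp1 and Igfbp5. They were taken by symbol from the gene count table, in which 10 of 55011 rows carried one of these symbols, and all 10 passed the filter on low counts in each of the 28 comparisons. The values are CPM, the count of a gene per 1000000 counts of its library, in 61 bulk RNA-seq libraries of whole muscle that the labels place in 22 groups. Bulk libraries cannot tell fewer cells of a type apart from less RNA per cell.

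The groups come from 5 experiments. C57BL/6J mice were taken sedentary or 1, 2 or 7 days after acute exercise, with 3 mice per time, and both the quadriceps and the tibialis anterior of each mouse were sequenced. In the second experiment quadriceps came from mice given diphtheria toxin (DT) with the Foxp3-IRES-GFP.hDTR allele (Foxp3DTR+) or without it (Foxp3DTR-), sedentary (2 and 3 mice), 1 day after exercise (3 and 3 mice) or 7 days after it (2 and 2 mice). This allele places the human DT receptor in cells that express Foxp3, the regulatory T cells, so that DT removes them, and the Foxp3DTR- controls received DT too. In the third, quadriceps of Foxp3DTR+ and Foxp3DTR- mice, all given DT, came from mice trained for 2 weeks or sedentary, 3 in each group. In the fourth, Foxp3DTR+ mice trained for 2 weeks and given DT received an antibody to interferon gamma (aIFNg) or control IgG for 1 week, 3 mice each. In the last, sedentary C57BL/6JN mice of 24 months received aIFNg or IgG, 2 mice each, and the labels of these 4 libraries say muscle without naming which.

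Matricellular proteins sit in the extracellular matrix and modulate how cells attach to it and respond to growth factors, without forming its main fibres, while the small leucine-rich proteoglycans bind collagen and set the width and spacing of its fibrils. In muscle these proteins are made mainly by resident fibroblast-like cells, the fibro-adipogenic progenitors, by tendon and connective-tissue cells and by vessel walls. Several of them are known to be high where matrix is being laid down or repaired.

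The start regions of 4 members are shown because Postn, Cilp and Bgn, like Lum and Fn1, had their highest wild-type means in quadriceps 7 days after exercise, where Aebp1 had its lowest. They come from RefSeq on GRCm38.p6, with 250 bases before and 50 after the transcription start, 5′ to 3′, and capitals mark matches to the motifs searched. The Postn window shown lies at chr3:54360857-54361156 (+ strand), the Cilp window at chr9:65264930-65265229 (+), the Bgn window at chrX:73483351-73483650 (+) and the Aebp1 window at chr11:5861616-5861915 (+).
Postn: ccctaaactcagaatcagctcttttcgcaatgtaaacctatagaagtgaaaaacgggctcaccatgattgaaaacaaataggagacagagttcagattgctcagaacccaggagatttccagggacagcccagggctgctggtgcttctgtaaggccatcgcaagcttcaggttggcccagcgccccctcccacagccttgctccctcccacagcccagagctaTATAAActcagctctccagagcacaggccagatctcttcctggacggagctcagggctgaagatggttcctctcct
Cilp: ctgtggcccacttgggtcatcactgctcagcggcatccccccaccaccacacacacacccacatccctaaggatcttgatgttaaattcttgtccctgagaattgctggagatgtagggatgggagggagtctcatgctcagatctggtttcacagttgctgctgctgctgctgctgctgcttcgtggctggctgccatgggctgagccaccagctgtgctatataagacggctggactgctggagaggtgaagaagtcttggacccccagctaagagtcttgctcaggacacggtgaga
Bgn: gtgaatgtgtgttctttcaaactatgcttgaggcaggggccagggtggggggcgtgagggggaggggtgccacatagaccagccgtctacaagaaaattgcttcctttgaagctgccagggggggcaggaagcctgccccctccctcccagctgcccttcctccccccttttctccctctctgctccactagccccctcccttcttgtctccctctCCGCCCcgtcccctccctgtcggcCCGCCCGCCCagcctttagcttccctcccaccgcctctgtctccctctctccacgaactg
Aebp1: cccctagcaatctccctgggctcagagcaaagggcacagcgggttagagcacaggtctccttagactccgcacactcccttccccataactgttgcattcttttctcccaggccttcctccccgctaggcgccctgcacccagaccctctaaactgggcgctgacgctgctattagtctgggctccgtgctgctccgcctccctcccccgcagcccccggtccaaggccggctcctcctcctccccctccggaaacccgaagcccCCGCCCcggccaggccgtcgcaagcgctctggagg
Both strands were searched for the TATA box with the letters TATAAA, the GC box with GGGCGG, the AP-1 motif with TGANTCA, the TEAD motif with GGAATG and the SMAD motif with CAGACA. Postn has 2 windows in the table, and the one shown was chosen after its match was seen: it held 1 TATA box, at base -26 from the start, while the other, at chr3:54359017-54359316, held no match. The Bgn window held 3 GC boxes, at -34, -10 and -6, of which the last 2 overlap, and the Aebp1 window held 1, at base 16. The Cilp window held no match to these 5 motifs. Of 32544 promoter windows of this length, 13.57% held the TATA box, 35.88% the GC box, 7.79% AP-1, 14.6% TEAD and 20.85% SMAD. In all, 7 of the 10 members had 9 windows in the RefSeq table. AP-1 was in none of these windows, TEAD in that of Igfbp5 and SMAD in those of Tnc and Sparc. A match is a string of letters and not a shown binding site.

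Library totals ran from 3359683 to 14445336 counts, so that 3 counts, taken as the floor of detection, corresponded to between 0.208 and 0.893 CPM. The lowest count of any member in any library was 11, for Tnc. Foxp3, which marks the cells that DT removes, was too rare to check the depletion well, with 0 counts in 41 of 61 libraries and at most 9. Among sedentary mice of the second experiment it averaged 0 CPM in Foxp3DTR+ and 0.317 CPM in Foxp3DTR- quadriceps. On day 1 it averaged 0.069 CPM in Foxp3DTR+ and 0.473 CPM in Foxp3DTR- quadriceps, and it was at 0 in both on day 7. In the third experiment it averaged 0 CPM in both trained groups, and 0.198 CPM in Foxp3DTR+ and 0.216 CPM in Foxp3DTR- sedentary quadriceps. Whether reads were counted by strand is not given in the sources used here, and of the genes overlapping members on the opposite strand, 8030451A03Rik had 57 counts over all libraries against 6001 for Tnc, and Apol7d had 9 against 38106 for Fn1. Together the members made up between 0.0755% and 0.214% of a library's counts.

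In resting muscle the members spanned a wide range of levels. Per kilobase of exon, Sparc, which encodes the collagen-binding glycoprotein osteonectin, stood at 72.8 CPM per kb in sedentary quadriceps and 85.9 in sedentary tibialis anterior. Dcn, for the proteoglycan decorin, stood at 69.3 and 64.7, and Igfbp5, for a binding protein of the insulin-like growth factors, at 53.9 and 38.2. Aebp1, for a secreted collagen-binding protein of fibroblasts and smooth muscle, followed with 29.8 and 29.6 CPM per kb. Cilp, for cartilage intermediate layer protein, had 16.2 and 13.2, and Bgn, for the proteoglycan biglycan, had 13.0 and 12.3. Lum, for the proteoglycan lumican, had 7.39 and 7.87, and Fn1, for fibronectin, the adhesive glycoprotein that integrins bind, had 7.32 and 5.90. The lowest were Tnc, for tenascin C, with 1.63 and 1.23, and Postn, for periostin, an integrin-binding protein of repair and stress, with 1.20 and 1.17 CPM per kb.

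The scarcest members at rest, Postn and Tnc, had the widest spans among the 22 group means, but both spans had their lowest mean in aged mice given aIFNg. The highest of the 22 group means was 20.9-fold the lowest for Postn (51.5 against 2.47 CPM) and 13.6-fold for Tnc (25.4 against 1.87 CPM). It was 6.90-fold for Aebp1, 5.79-fold for Lum, 5.57-fold for Bgn, 5.38-fold for Sparc, 4.70-fold for Cilp, 4.25-fold for Igfbp5, 3.43-fold for Dcn and 2.56-fold for Fn1. Postn was highest in wild-type quadriceps on day 7, then day 2, then in trained Foxp3DTR- quadriceps, and lowest in both aged groups. Tnc was highest in wild-type quadriceps on day 2, then day 1, and lowest in aged mice given aIFNg, with 22 and 11 counts. Its next lowest mean was 5.18 CPM, in Foxp3DTR+ quadriceps on day 7. The place of Tnc above Aebp1 in span thus rested on that aged group, a separate experiment from an unnamed muscle. The highest means of Bgn, Fn1 and Igfbp5 were also in aged mice given aIFNg. Cilp was highest in wild-type quadriceps on day 7, followed by trained Foxp3DTR- quadriceps and the trained Foxp3DTR+ mice given IgG. Dcn and Lum means were higher in the quadriceps of every Foxp3DTR group than in any wild-type group of either muscle, but these are separate experiments and were not tested against each other. In the order of 22 means, neighbours rarely stood apart: of 21 neighbouring pairs, the libraries of both groups did not overlap in 2 for Bgn, 2 for Aebp1, 1 for Tnc, 1 for Igfbp5 and none for the other 6 members. The same count was not made for other genes, so it cannot be compared with theirs.

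**Figure D1:**
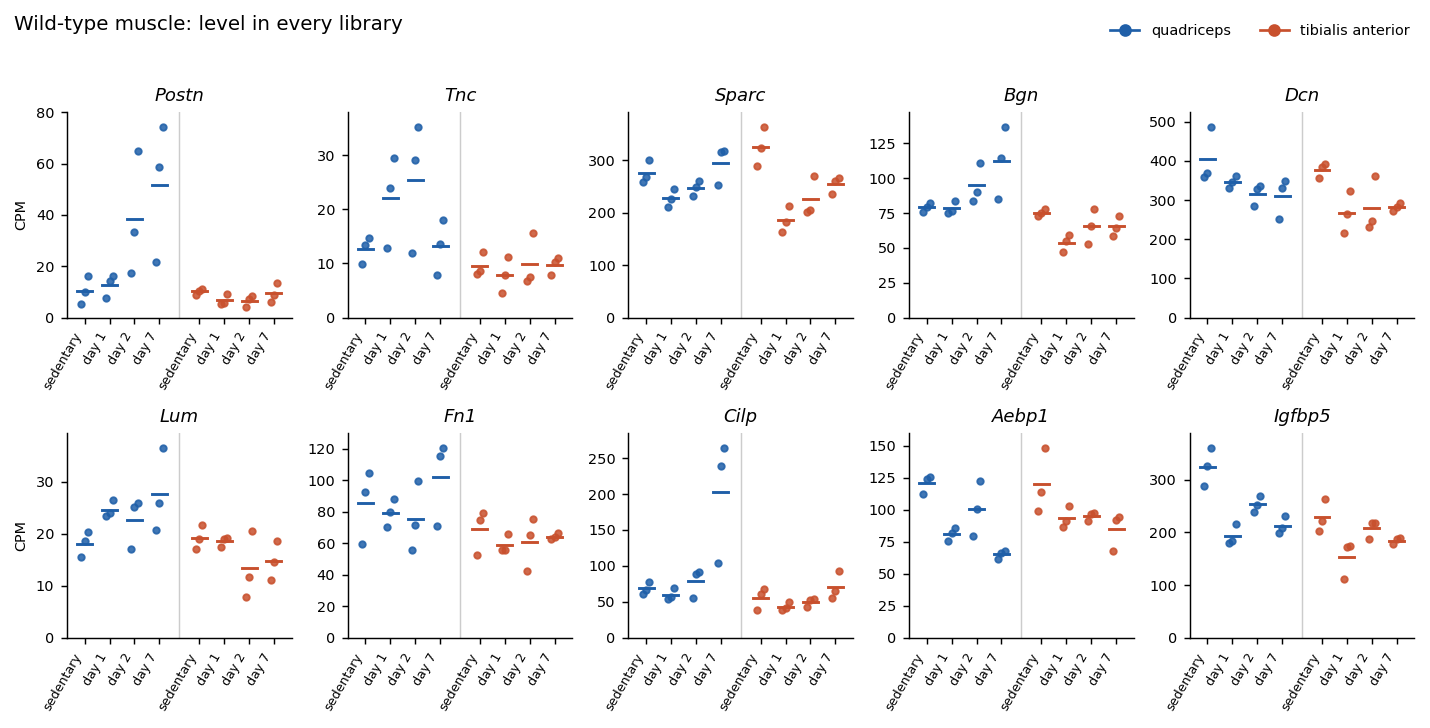
CPM of the 10 members in each wild-type library (points) with the group mean (bar), in quadriceps and tibialis anterior, sedentary and 1, 2 and 7 days after exercise, each gene on its own linear axis. In quadriceps Postn and Cilp reach their highest points on day 7 (74.1 and 264 CPM) and Aebp1 its lowest.

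The first question was how the members changed as quadriceps recovered from acute exercise. By day 7 Cilp had risen and Aebp1 and Igfbp5 had fallen, and Igfbp5 was already lower on day 1. No member passed the edgeR test on day 2. Postn, with the largest fold of the 10 on days 2 and 7, missed the edgeR threshold at each time, and DESeq2 called it on day 7.

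Cilp, whose protein is known from human cartilage to restrain transforming growth factor beta and insulin-like growth factor signals, had 105, 264 and 239 CPM on day 7, against 67.3, 78.1 and 61.2 CPM in sedentary quadriceps. All 3 day 7 libraries lay above the sedentary ones, mouse 8 well below the other two. The log2 fold change was 1.57 ± 0.25 (SE, edgeR quasi-likelihood test, adjusted p = 0.00682). Against day 2, which had 88.8, 91.0 and 56.1 CPM, it was 1.36 ± 0.24 (edgeR, adjusted p = 0.0369), and 0.0995% of genes were called in that comparison. On day 1 Cilp had 69.8, 56.3 and 54.3 CPM, within reach of the sedentary libraries.

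Aebp1 went the other way. It had 61.5, 67.7 and 66.3 CPM on day 7, against 126, 113 and 124 CPM in sedentary quadriceps. The day 7 libraries were close together and far below the sedentary ones, with a log2 fold change of -0.87 ± 0.13 (edgeR, adjusted p = 0.00583). On day 1 its 75.6, 86.1 and 82.1 CPM also lay below every sedentary library, but the log2 fold change of -0.55 ± 0.13 did not pass (edgeR, adjusted p = 0.0782), and on day 2 the 79.2, 123 and 101 CPM overlapped the sedentary range.

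Igfbp5 had 184, 180 and 216 CPM on day 1, against 287, 325 and 360 CPM in sedentary quadriceps. The groups did not overlap, and the log2 fold change was -0.72 ± 0.10 (edgeR, adjusted p = 0.00125), with 0.582% of genes called in that comparison. It remained low on day 7, at 208, 199 and 230 CPM, a log2 fold change of -0.58 ± 0.10 (edgeR, adjusted p = 0.0212). On day 2 the libraries had 238, 270 and 252 CPM, again below each sedentary one, with a log2 fold change of -0.34 ± 0.10 that did not pass (edgeR, adjusted p = 0.247). The growth factor it binds, Igf1, showed log2 fold changes of -0.10 ± 0.19 on day 1 and 0.04 ± 0.19 on day 7, and its receptor Igf1r -0.29 ± 0.30 and 0.07 ± 0.29, none of which passed.

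Postn averaged 10.4 ± 5.55 CPM in sedentary quadriceps, 12.5 ± 4.53 on day 1, 38.5 ± 24.1 on day 2 and 51.5 ± 27.0 on day 7 (SD, n = 3 each). The single libraries had 33.3, 64.9 and 17.5 CPM on day 2 and 21.6, 58.8 and 74.1 on day 7, against 9.80, 16.2 and 5.19 CPM in sedentary muscle. Every library of days 2 and 7 was above every sedentary one, but they varied over 3-fold within a day. The log2 fold changes were 1.92 ± 0.48 on day 2 (edgeR, adjusted p = 0.138) and 2.33 ± 0.48 on day 7 (edgeR, adjusted p = 0.0629, against 0.0279 with DESeq2). The value at day 7 passed without mouse 8 (2.69, edgeR adjusted p = 0.0108), and that at day 2 without mouse 15 (2.26, edgeR adjusted p = 0.0491). Each of these mice had the lowest Postn of its day. At each time this was the only 1 of 6 single libraries whose removal gave a call. Over the 6 removals the edgeR adjusted p reached 0.328 on day 7 and 0.408 on day 2.

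Tnc, whose protein loosens cell adhesion at sites of injury and load, averaged 12.6 ± 2.43 CPM sedentary, 22.1 ± 8.48 on day 1, 25.4 ± 12.1 on day 2 and 13.2 ± 5.12 on day 7 (SD, n = 3 each). In both early groups the lowest library lay within the sedentary range, and the log2 fold changes of 0.82 ± 0.37 and 1.03 ± 0.37 did not pass (edgeR, adjusted p = 0.566 on day 1 and 0.367 on day 2).

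Among the proteoglycans none passed the edgeR test in quadriceps, while DESeq2 called Bgn higher on day 7. Bgn had 85.3, 136 and 115 CPM on day 7, against 79.6, 82.5 and 75.4 CPM sedentary, without overlap, and a log2 fold change of 0.52 ± 0.14 (edgeR, adjusted p = 0.198). Lum had 20.7, 36.5 and 25.9 CPM on day 7, against 20.3, 18.6 and 15.4 CPM sedentary, a log2 fold change of 0.63 ± 0.22 (edgeR, adjusted p = 0.386). Dcn had 252, 331 and 349 CPM on day 7, against 486, 360 and 368 CPM sedentary, a log2 fold change of -0.36 ± 0.12 (edgeR, adjusted p = 0.371). Bgn and Lum thus lay above, and Dcn below, every sedentary library, although mouse 8 was nearly level with the highest of them for Lum. Sparc (0.12 ± 0.10) and Fn1 (0.28 ± 0.22) overlapped between day 7 and sedentary muscle.

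On day 7, 3 of 10 members were called, where 0.214% of the 13062 genes tested were. The median log2 fold change of the 10 members was 0.20, against -0.0014 over all genes tested, with 7 members higher and 3 lower. On day 2, 0 of 10 were called by edgeR and 0 by DESeq2, 4 had an unadjusted p under 0.05, and 0.299% of genes were called. That share is at adjusted p and is no background for the count at unadjusted p. By unadjusted p, Bgn, at 0.0650 (edgeR), ranked only 1401 of 13062 genes. Mouse 8 had the lowest library of the 3 on day 7 for 9 of the 10 members. Of 16 fibrillar and network collagens, 16 were higher on day 7 and 0 were called, with a median log2 fold change of 0.23. Col3a1, for the collagen of loose and healing tissue, had 0.68 ± 0.18 (edgeR, adjusted p = 0.181), and Col1a1, for the main fibre collagen, 0.33 ± 0.16. Of 8 other small leucine-rich proteoglycans tested, 1 was higher and 0 were called, with a median of -0.36, and of 25 other matricellular genes, 11 were higher and 0 called.

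The summed level of 17 markers of fibro-adipogenic progenitors was 1244 to 1542 CPM on day 7, against 1546 to 2152 CPM in sedentary quadriceps, with 5 of the 17 higher and none of them at 0. The 13 tendon markers summed to 393 to 596 CPM on day 7 and 373 to 667 CPM in sedentary muscle. Their part in the members' results was not tested. The Cilp call was lost without mouse 9 of day 7 (1.35, edgeR adjusted p = 0.0659) and without mouse 5 (1.57, 0.0565) or mouse 7 (1.50, 0.0965) of the sedentary group. The Igfbp5 call on day 7 was lost without mouse 8 (-0.58, 0.0578) or 9 (-0.53, 0.168) of day 7 and without mouse 6 (-0.59, 0.0765) or 7 (-0.49, 0.168) of the sedentary group. Against day 2, Cilp was lost without mice 9 (1.13), 10 (1.23), 14 (1.47) or 15 (1.17), at adjusted p from 0.0902 to 0.221. The Aebp1 call on day 7 and the Igfbp5 call on day 1 were kept without any single library.

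The tibialis anterior of the same mice had no member with a positive log2 fold change on day 1 and 1 member called, Sparc, which was lower. Sparc had 182, 164 and 213 CPM on day 1, against 290, 363 and 323 CPM in sedentary tibialis anterior. The groups were far apart, with a log2 fold change of -0.76 ± 0.12 (edgeR, adjusted p = 0.0283), in a comparison where 0.0552% of genes were called. All 10 members had a negative log2 fold change on day 1, from -0.01 for Lum to -0.76 for Sparc, with a median of -0.39, against -0.00075 over all genes tested, and 5 had an unadjusted p under 0.05. Mouse 6 had the highest sedentary library for 8 of the 10 members, and mouse 17 the lowest day 1 library for 8 of them. Igfbp5 had 174, 111 and 173 CPM on day 1, against 203, 262 and 222 CPM sedentary, apart but not called (-0.54 ± 0.14, edgeR adjusted p = 0.211). Bgn (-0.44 ± 0.14) and Dcn (-0.46 ± 0.15) lay below their sedentary libraries as well, without passing.

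Other matrix genes shared that direction on day 1. Of 16 collagens 15 were lower and 0 called, with a median log2 fold change of -0.62, including Col1a2 at -0.87 ± 0.18 (edgeR, adjusted p = 0.0915). All 8 other small leucine-rich proteoglycans and 21 of 25 other matricellular genes were lower, with 0 called. The 17 progenitor markers were all lower and 0 called, and summed to 1132 to 1455 CPM on day 1, against 1566 to 1709 CPM in sedentary muscle, and the 13 tendon markers to 288 to 388, against 446 to 565 CPM, none of them at 0. Their part in the Sparc result was not tested. The Sparc call was lost without mouse 16 (-0.74) or 17 (-0.68) of day 1 or mouse 6 (-0.69) or 7 (-0.75) of the sedentary group, at adjusted p from 0.115 to 0.206, and with a length and GC trend removed per library (-0.70).

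Later, no member was called in tibialis anterior. On day 2, 0 were called by edgeR and 1, Sparc, by DESeq2, 2 had an unadjusted p under 0.05, and 0.063% of genes were called. Sparc had 201, 270 and 205 CPM on day 2, against 290, 363 and 323 CPM sedentary, a log2 fold change of -0.49 ± 0.12 (edgeR, adjusted p = 0.204). On day 7, 0 were called by either tool, 3 had an unadjusted p under 0.05, and 0.0158% of genes were called. Cilp had 92.5, 54.9 and 64.6 CPM on day 7, against 38.3, 61.6 and 68.6 CPM sedentary, overlapping (0.40 ± 0.21). Postn stayed between 4.25 and 13.6 CPM in all 12 libraries of this muscle. Between days 7 and 2, 0 members were called by edgeR or DESeq2, 1 had an unadjusted p under 0.05, and 0.15% of genes were called.

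**Figure D2:**
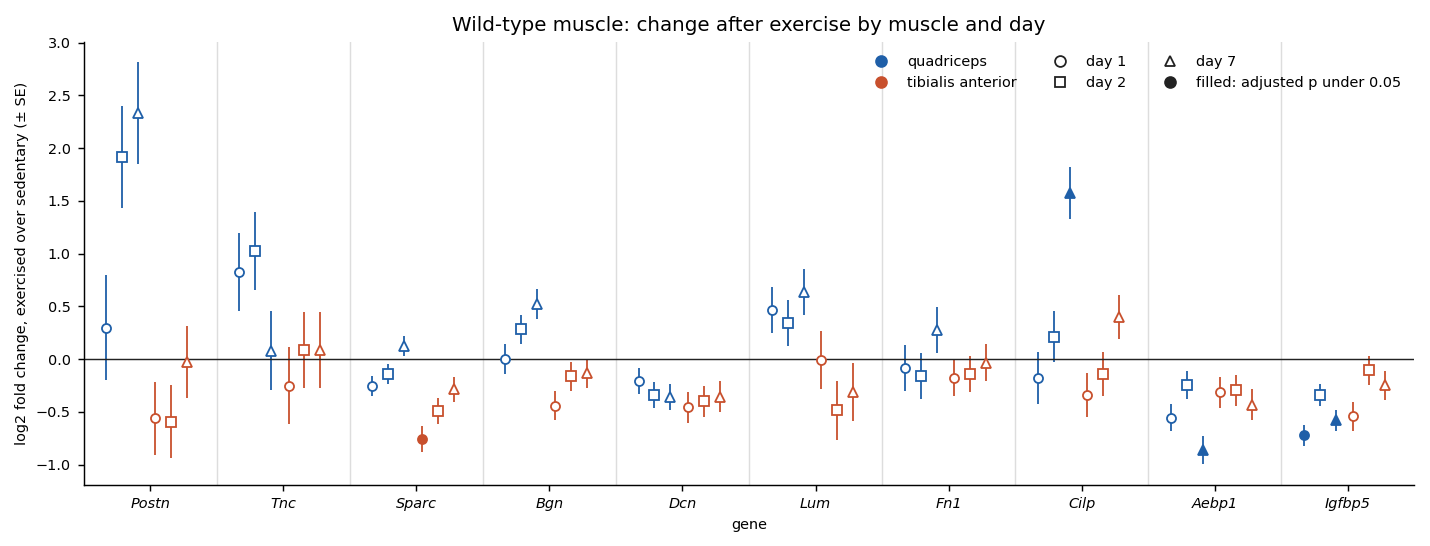
Log2 fold change against sedentary muscle (points, with bars of 1 SE from edgeR) of the 10 members on days 1, 2 and 7 in quadriceps and tibialis anterior, filled where the adjusted p was under 0.05. On day 7 Postn stands at 2.33 in quadriceps and -0.03 in tibialis anterior, and Cilp at 1.57 and 0.40.

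Quadriceps and tibialis anterior were then compared directly in 1 fit of the 24 wild-type libraries. At rest Igfbp5 was higher in quadriceps, at 287, 325 and 360 CPM, against 203, 262 and 222 CPM in tibialis anterior. The groups were apart and each mouse had the higher value in quadriceps, with a log2 difference of 0.50 ± 0.13 (edgeR, adjusted p = 0.0476), where 1.3% of genes were called. The Igfbp5 call was lost without mouse 6 (0.51) or 7 (0.41) in quadriceps or mouse 5 (0.42) or 7 (0.49) in tibialis anterior, at adjusted p from 0.113 to 0.26, and with library totals or RLE factors in place of TMM. The other 9 members did not pass, and Sparc had the next smallest p, at -0.24 ± 0.11 (edgeR, adjusted p = 0.452). The growth factor Igf1 stood at 0.81 ± 0.21 (edgeR, adjusted p = 0.0565). Of the other matrix genes, Ogn, a small leucine-rich proteoglycan (osteoglycin), was higher in quadriceps (0.94 ± 0.20, edgeR adjusted p = 0.0129) and Col1a1 lower (-0.81 ± 0.20, edgeR adjusted p = 0.0320).

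The difference between the muscles in their change from rest, tested as an interaction, passed for 0 members at each day. On day 1, 2 members had an unadjusted p under 0.05 and DESeq2 called 0, with 0.0434% of genes called. On day 2 it was 4, with 0 by DESeq2 and 0.00724% of genes. On day 7 it was 6, with 1 by DESeq2, Postn, and 0.0796% of genes. These shares are at adjusted p, whereas Aebp1, with an unadjusted p of 0.0468 on day 7 (edgeR), ranked 682 of 13819 genes. The median difference over the 10 members was 0.35, 0.36 and 0.37 at days 1, 2 and 7, against 0.0047, 0.0026 and 0.0011 over all genes tested, and 8 of 10 members lay above 0 at each day. On day 7 these 8 include Dcn (0.0013) and Tnc (0.0021), which turn negative with mitochondrially encoded genes left out, without the filter or with the length and GC trend removed, so that 6 of 10 lie above 0 with the trend removed.

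For Postn the ratio of quadriceps to tibialis anterior within a mouse was 0.934, 1.45 and 0.592 in sedentary mice, 3.05, 0.802 and 2.56 on day 1, 7.83, 9.13 and 2.07 on day 2 and 3.49, 6.72 and 5.46 on day 7. All 6 mice of days 2 and 7 had a ratio above all 3 sedentary mice. The interaction was 0.86 ± 0.66 on day 1, 2.51 ± 0.65 on day 2 (edgeR, adjusted p = 0.488) and 2.37 ± 0.64 on day 7 (edgeR, adjusted p = 0.327). For Cilp the ratio was 1.13, 4.81 and 3.70 on day 7, against 1.76, 1.27 and 0.893 in sedentary mice, so that mouse 8 fell in the sedentary range. Its interaction on day 7 was 1.18 ± 0.35 (edgeR, adjusted p = 0.496).

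For Bgn the ratio was 1.45, 2.12 and 1.58 on day 7, against 1.06, 1.06 and 1.04 in the sedentary mice, with an interaction of 0.66 ± 0.20 (edgeR, adjusted p = 0.508). The 9 exercised mice all had a Bgn ratio above the sedentary ones, the lowest being 1.26. Lum (0.95 ± 0.36) and Sparc (0.42 ± 0.16) were also more positive in quadriceps on day 7, without passing. For Aebp1 and Igfbp5, the day 7 interactions were -0.43 ± 0.20 and -0.33 ± 0.18, so a difference between the muscles in these changes was not detected.

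Across the 24 wild-type libraries, Postn, Bgn and Cilp tracked each other. The Pearson r of log2 CPM was 0.856 for Postn and Bgn, 0.768 for Postn and Cilp, 0.767 for Bgn and Cilp and -0.515 for Cilp and Aebp1. These 24 libraries share 12 mice, 2 muscles and the exercise times, so r is a description only. The genes most like Postn were H19, an imprinted long non-coding RNA (r = 0.838), Eef1a1, a translation elongation factor (0.823), and Sln, which encodes the calcium pump regulator sarcolipin (0.822). Those most like Cilp included Uchl1 (0.884), H19 (0.883) and Mymk, the myoblast fusion gene (0.813), and those most like Bgn were Eef1a1 (0.876), H19 (0.864) and Fbn1 (0.839). Sparc was most like Col1a2 (0.835), and Dcn most like the progenitor marker Gsn (0.803).

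The next question was what loss of regulatory T cells did to the members around acute exercise. The libraries of this experiment differed in more than the members. Mitochondrially encoded transcripts took 21.4% to 23.5% of counts in Foxp3DTR+ sedentary libraries and 7.90% to 11.996% in Foxp3DTR- ones. On day 7 they took 20.005% to 21.8% in Foxp3DTR+ and 8.70% to 8.92% in Foxp3DTR- libraries, and on day 1 between 5.44% and 6.56% in both. Ckm, the fibre gene for muscle creatine kinase, had 8378 to 10161 CPM in Foxp3DTR+ sedentary libraries, against 32617 to 39945 CPM in Foxp3DTR- ones. Genes detected per library were fewer in the sedentary and day 7 Foxp3DTR+ libraries (14701 to 15306) than in the Foxp3DTR- ones (16508 to 18494), and 21211 to 26596 on day 1. The Foxp3DTR+ sedentary and day 7 libraries thus stand apart from all others of this experiment. Both Foxp3DTR+ groups of these times consist wholly of such libraries, so a comparison that uses them has no value without them. The day 1 libraries of both genotypes also differed from the rest, with more genes detected. They had 9653120 to 14445336 counts, against 4554630 to 9558470 in the sedentary and day 7 libraries. The part of all these features in the results that follow was not tested beyond the scalings given.

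**Figure D3:**
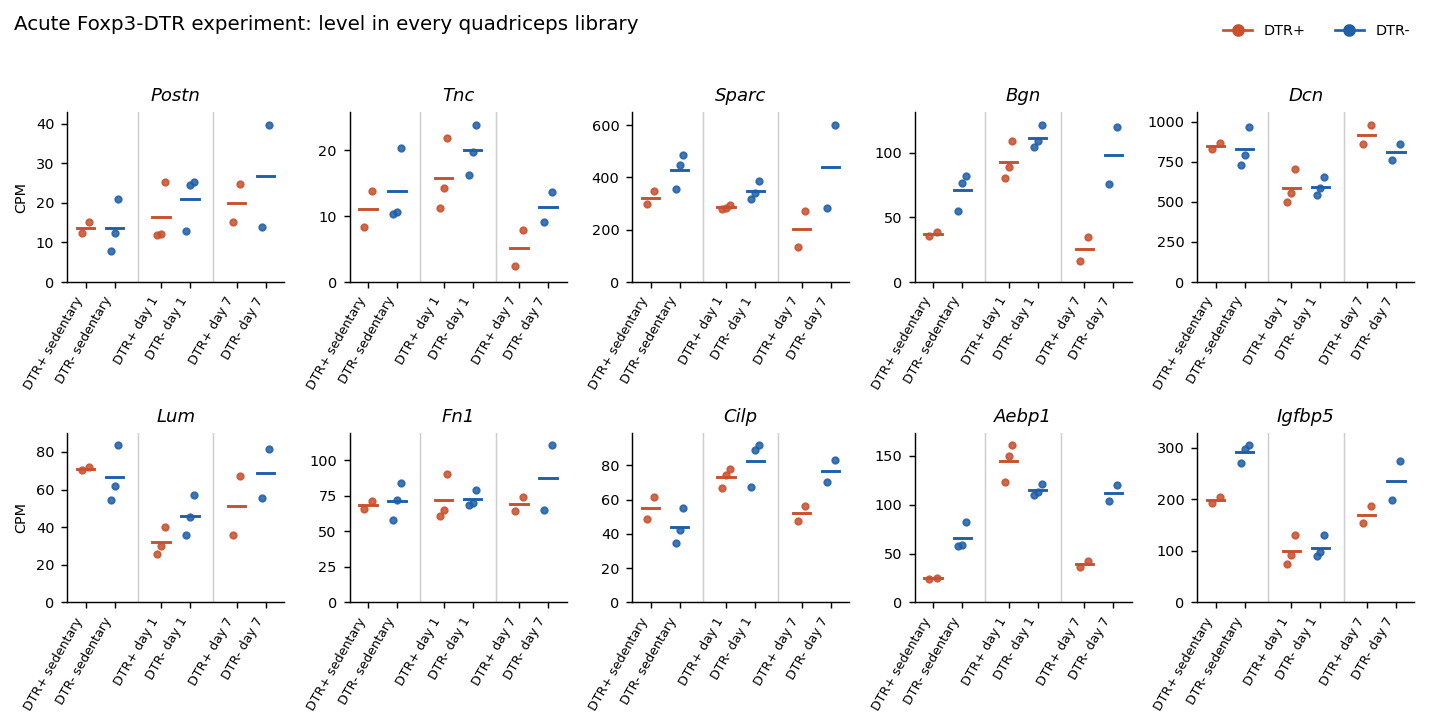
CPM of the 10 members in each quadriceps library (points) of DT-treated Foxp3DTR+ and Foxp3DTR- mice, with the group mean (bar), sedentary and 1 and 7 days after exercise, each gene on its own linear axis. Aebp1, Bgn, Igfbp5 and, narrowly, Sparc lie lower in every Foxp3DTR+ library than in any Foxp3DTR- library at rest and on day 7.

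As fitted, Aebp1 and Bgn had the largest differences between the genotypes on day 7, and Aebp1 the largest at rest. Aebp1 had 25.4 and 23.9 CPM in Foxp3DTR+ sedentary quadriceps, against 58.1, 81.8 and 59.2 CPM in Foxp3DTR-. On day 7 it had 42.7 and 36.5 CPM, against 103 and 120 CPM. Every Foxp3DTR+ library lay below every Foxp3DTR- one at both times, with log2 fold changes of -1.12 ± 0.18 (edgeR, adjusted p = 0.000129) and -1.21 ± 0.19 (edgeR, adjusted p = 0.000103). On day 1 its 149, 161 and 123 CPM in Foxp3DTR+ lay above the 110, 121 and 113 CPM in Foxp3DTR-, a log2 fold change of 0.35 ± 0.15 that did not pass (edgeR, adjusted p = 1).

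Bgn had 34.9 and 16.4 CPM on day 7 in Foxp3DTR+, against 120 and 76.0 CPM in Foxp3DTR-, a log2 fold change of -1.63 ± 0.29 (edgeR, adjusted p = 0.00028). In sedentary muscle it had 35.8 and 38.4 CPM in Foxp3DTR+, against 76.9, 55.2 and 82.2 CPM in Foxp3DTR-, apart in CPM but not called (-0.64 ± 0.26, edgeR adjusted p = 0.0745). Sparc on day 7 had 272 and 135 CPM in Foxp3DTR+, against 601 and 282 CPM in Foxp3DTR-. The groups were separated narrowly and the libraries within each group lay far apart, and the log2 fold change was -0.82 ± 0.28 (edgeR, adjusted p = 0.0362). The Sparc call was lost without library 3 of Foxp3DTR+ (-0.41, edgeR adjusted p = 0.347) and without library 1 of Foxp3DTR- (-0.21, edgeR adjusted p = 0.671).

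Cilp was called higher in Foxp3DTR+ sedentary muscle, at 0.64 ± 0.19 (edgeR, adjusted p = 0.0188). Its 48.9 and 61.5 CPM overlapped the 42.4, 34.5 and 55.0 CPM of Foxp3DTR-, and the call was lost with library totals alone (0.33), without library 3 of Foxp3DTR+ (0.46) and without library 2 of Foxp3DTR- (0.49). The other members were not called at either time. In CPM, Igfbp5 lay lower in every Foxp3DTR+ than in any Foxp3DTR- library at rest and on day 7. Its log2 fold changes were -0.24 ± 0.23 and -0.19 ± 0.25. Sparc was likewise apart in CPM at rest, with a log2 fold change of -0.10 ± 0.25 that did not pass. Dcn had 868 and 833 CPM in Foxp3DTR+ sedentary muscle, against 966, 731 and 790 CPM in Foxp3DTR-, and 859 and 981 CPM on day 7, against 765 and 861 CPM. Postn (0.32 ± 0.45 and -0.10 ± 0.48) and Fn1 (0.26 ± 0.22 and -0.04 ± 0.24) had wide errors at both times.

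These calls stand against a high background. In sedentary muscle 2 of 10 members were called and 26.6% of the 14245 genes tested, and on day 7 it was 3 of 10 and 25.3%. On day 1, 0 of 10 members were called by edgeR and 0 by DESeq2, 2 had an unadjusted p under 0.05, and 0% of genes were called. That share is at adjusted p, whereas Lum, with an unadjusted p of 0.0468 (edgeR), ranked 256 of 14245 genes. The median log2 fold change of the members on day 7 was -0.23, against -0.10 over all genes tested. With a trend on GC content and transcript length removed per library, Aebp1, whose transcript is the richest of the members in GC (58.3%), was no longer called at rest (-0.25) or on day 7 (-0.33), nor was Sparc on day 7 (-0.38), whereas Bgn on day 7 (-1.25) and Cilp at rest (1.20) were kept, and Fn1 was called higher at both times (0.68 on day 7).

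The collagens also moved with the scaling. On day 7, 15 of 16 were lower and 8 called lower, with a median log2 fold change of -0.83, among them Col6a2 (-1.40 ± 0.28), a subunit of the collagen around fibres, and Col4a1 (-1.13 ± 0.23), of basement membrane. With the length and GC trend removed 8 of 16 were higher, 1 was called and the median was -0.088. The growth factor genes Tgfb3 (-1.51 ± 0.24, edgeR adjusted p = 9.14e-05) and Tgfb2 (-1.47 ± 0.43, edgeR adjusted p = 0.0169) were lower on day 7. The 17 progenitor markers summed to 1334 to 1532 CPM in Foxp3DTR+ sedentary muscle, against 2302 to 2819 CPM in Foxp3DTR-, and to 1439 to 1599, against 2343 to 2927 CPM, on day 7. Single progenitor markers went both ways: at rest 9 of 17 were higher with 2 called, Ly6a (1.09) and Mfap5 (0.86), and 8 lower with 4 called, among them the abundant Gsn (-0.78). On day 7, 6 were higher with 1 called, Ly6a (1.69), and 11 lower with 4 called. On day 7 the 13 tendon markers summed to 356 to 468 CPM in Foxp3DTR+ and 719 to 742 CPM in Foxp3DTR-, with 7 called lower. Such a sum leans on the abundant genes. The tendon gene Tnmd averaged 25.9 CPM in Foxp3DTR+ and 26.3 CPM in Foxp3DTR- that day. Scx, another, averaged 1.29 and 0.221 CPM, near the floor. The 12 T and NK cell markers summed to 27.9 to 80.6 CPM, with 0 at 0, against 4.01 to 7.25 CPM in Foxp3DTR-, with 7 at 0, and the 15 macrophage markers to 328 to 578, against 236 to 275 CPM. Their part in the members' results was not tested.

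Within each genotype, day 1 was set against sedentary muscle. In Foxp3DTR+ mice 6 of 10 members were called, with 42.4% of genes, and in Foxp3DTR- mice 5 of 10, with 16.4% of genes. Igfbp5 fell in both. In Foxp3DTR+ it had 91.7, 74.8 and 132 CPM on day 1, against 194 and 205 CPM sedentary, a log2 fold change of -1.53 ± 0.22 (edgeR, adjusted p = 1.34e-05). In Foxp3DTR- it had 132, 89.7 and 98.8 CPM on day 1, against 305, 271 and 298 CPM sedentary, a log2 fold change of -1.70 ± 0.21 (edgeR, adjusted p = 2.9e-05), the largest of the 10 members there. Both genotypes were apart from rest, and their changes did not differ detectably (0.17 ± 0.30). Igf1 was also lower on day 1, by log2 fold changes of -1.74 ± 0.28 in Foxp3DTR+ (edgeR, adjusted p = 4.13e-05) and -0.77 ± 0.25 in Foxp3DTR- (edgeR, adjusted p = 0.0410).

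Dcn and Lum fell on day 1 in both genotypes. Dcn had 556, 703 and 497 CPM on day 1 in Foxp3DTR+, against 868 and 833 CPM sedentary (-1.08 ± 0.16, edgeR adjusted p = 1.34e-05). In Foxp3DTR- it had 653, 542 and 585 CPM, against 966, 731 and 790 CPM (-0.74 ± 0.14, edgeR adjusted p = 0.00152). Every day 1 library was below every sedentary one of its genotype. Lum had 26.0, 40.3 and 29.9 CPM on day 1 in Foxp3DTR+, against 71.8 and 70.2 CPM sedentary (-1.69 ± 0.27, edgeR adjusted p = 3.25e-05). In Foxp3DTR- it had 57.3, 35.7 and 45.3 CPM, against 83.6, 61.8 and 54.5 CPM, overlapping (-0.79 ± 0.24, edgeR adjusted p = 0.0288). The Lum call in Foxp3DTR- was lost with library totals (-0.53) and without library 1 (-0.56) or 2 (-0.85) of the sedentary or library 2 (-0.65) or 3 (-0.76) of the day 1 Foxp3DTR- group.

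Aebp1 rose on day 1, by 2.01 ± 0.19 on the log2 scale in Foxp3DTR+ (edgeR, adjusted p = 4.42e-08) and 0.54 ± 0.15 in Foxp3DTR- (edgeR, adjusted p = 0.0189). The rises differed, by 1.47 ± 0.24 (edgeR, adjusted p = 0.0003). For Cilp, Foxp3DTR+ muscle had 67.1, 74.3 and 78.1 CPM on day 1, against 48.9 and 61.5 CPM sedentary, with a fitted log2 fold change of -0.13 ± 0.19 that did not pass. Its libraries were higher in CPM on day 1, and with library totals alone the log2 fold change is 0.41. In Foxp3DTR- muscle Cilp rose, with 67.2, 89.0 and 91.8 CPM on day 1, against 42.4, 34.5 and 55.0 CPM sedentary (0.66 ± 0.17, edgeR adjusted p = 0.0134), and the changes differed by -0.78 ± 0.26 (edgeR, adjusted p = 0.0458). In the test of the difference 2 of 10 members were called, where 15.3% of genes were. Wild-type quadriceps, a separate experiment, was not tested against these groups. Among members called in Foxp3DTR-, log2 fold changes on day 1 there went the other way for Aebp1 (-0.55 ± 0.13), Cilp (-0.18 ± 0.25) and Lum (0.46 ± 0.22). None of these was called there. Dcn (-0.21 ± 0.12, not called) and Igfbp5 (-0.72 ± 0.10, called) were lower in wild-type muscle too.

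Bgn rose on day 1 in Foxp3DTR+, with 80.3, 89.1 and 109 CPM, against 35.8 and 38.4 CPM sedentary (0.79 ± 0.26, edgeR adjusted p = 0.0181). In Foxp3DTR- it had 104, 109 and 122 CPM, against 76.9, 55.2 and 82.2 CPM, apart but not called (0.39 ± 0.22). Sparc fell in Foxp3DTR+, with 283, 293 and 281 CPM, against 349 and 297 CPM (-0.71 ± 0.25, edgeR adjusted p = 0.0269), the groups nearly touching. Postn, Tnc and Fn1 passed in neither genotype.

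The day 1 values lean on the scaling. The median log2 fold change of all genes tested was 0.28 in Foxp3DTR+ and 0.086 in Foxp3DTR-, and with library totals alone it was 0.81 and 0.34. Relative to these medians the directions of Aebp1, Bgn, Dcn, Lum and Igfbp5 stand, but with the length and GC trend removed the calls of Aebp1 in Foxp3DTR- (0.28) and in the difference (0.62), of Bgn in Foxp3DTR+ (0.16) and of Cilp in Foxp3DTR- (0.49) were lost. The Sparc call in Foxp3DTR+ was lost with library totals (-0.17) and without library 2 of the sedentary (-0.58) or any library of the day 1 group (-0.72 to -0.70), and that of Bgn without either sedentary library (0.75 and 0.82) or library 3 of day 1 (0.63). In Foxp3DTR- the Aebp1 call was lost without library 1 (0.47) or 3 (0.43) at rest or 1 (0.51) or 2 (0.47) of day 1, and the Cilp call without library 2 at rest (0.50) or 2 (0.57) or 3 (0.58) of day 1. The difference for Cilp was lost with library totals (-0.50) and without 9 of 11 single libraries (-0.93 to -0.61 over all 11), and that for Aebp1 was kept without each (1.30 to 1.58). Kept without any single library were Dcn and Igfbp5 in both genotypes and Aebp1 and Lum in Foxp3DTR+.

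**Figure D4:**
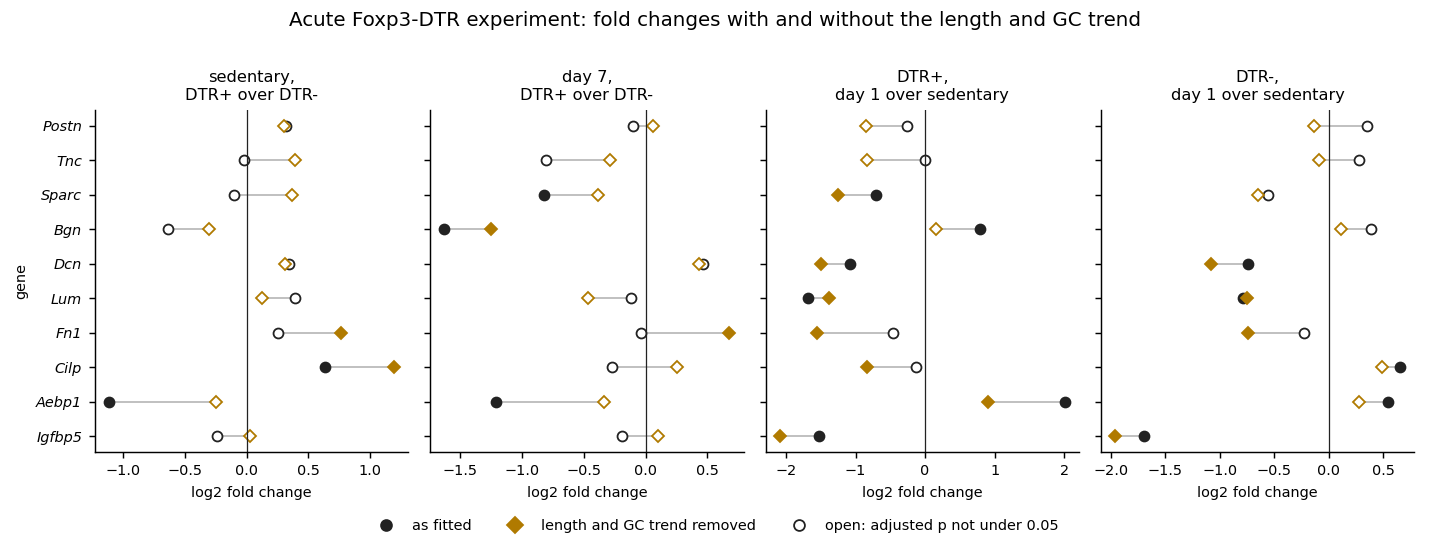
Log2 fold change of the 10 members in the acute experiment as fitted by edgeR (circles) and with a trend on GC content and transcript length removed per library (diamonds), filled where the adjusted p was under 0.05, for Foxp3DTR+ over Foxp3DTR- at rest and on day 7 and for day 1 over sedentary in each genotype. Aebp1 is at -1.12 as fitted and -0.25 with the trend removed at rest, and Bgn at -1.63 and -1.25 on day 7.

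By day 7 no member passed against rest within either genotype. In Foxp3DTR+ 0 of 10 were called, 4 had an unadjusted p under 0.05, and 1.01% of genes were called. In Foxp3DTR- 0 of 10 were called, 2 had an unadjusted p under 0.05, and 0.00702% of genes were called. The 2 were Cilp (0.70 ± 0.19) and Aebp1 (0.65 ± 0.17), whose day 7 libraries lay above all sedentary ones, with 83.4 and 70.2 CPM of Cilp on day 7, against 42.4, 34.5 and 55.0 CPM. In wild-type quadriceps, a separate experiment, Cilp was also higher on day 7 (1.57 ± 0.25) but Aebp1 was lower (-0.87 ± 0.13), both called. For the difference in change between the genotypes 0 of 10 were called, 2 had an unadjusted p under 0.05, and 0.0772% of genes were called. All these counts come from edgeR, and DESeq2 called 0 members in each of these 3 comparisons. Postn on day 7 had 24.8 and 15.2 CPM in Foxp3DTR+ and 39.7 and 13.9 CPM in Foxp3DTR- muscle, with a log2 change from rest of 0.42 ± 0.49 in Foxp3DTR+ and 0.84 ± 0.44 in Foxp3DTR-. Without 1 library, between 0 and 3 members were called in Foxp3DTR+.

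**Figure D5:**
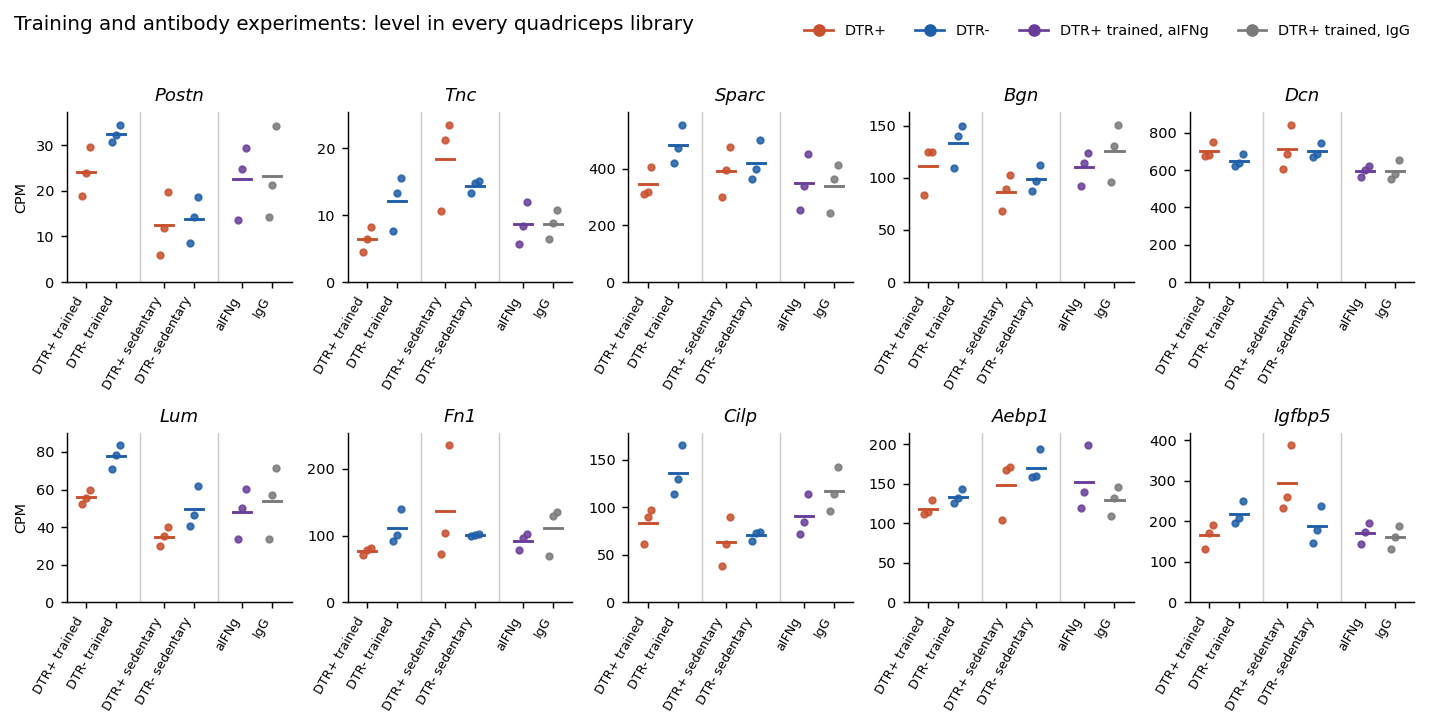
CPM of the 10 members in each quadriceps library (points) of trained and sedentary Foxp3DTR+ and Foxp3DTR- mice, all given DT, and of trained Foxp3DTR+ mice given aIFNg or IgG, with the group mean (bar), each gene on its own linear axis. Postn and Cilp lie above their sedentary libraries in trained Foxp3DTR- muscle, and Tnc and Igfbp5 lie below theirs in trained Foxp3DTR+ muscle.

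After 2 weeks of training Tnc and Igfbp5 were lower in Foxp3DTR+ quadriceps, and no member passed in Foxp3DTR-. Tnc had 6.43, 4.50 and 8.21 CPM in trained Foxp3DTR+ muscle, against 21.2, 10.6 and 23.5 CPM in sedentary Foxp3DTR+ muscle. The groups were apart, with a log2 fold change of -1.53 ± 0.33 (edgeR, adjusted p = 0.0151). Igfbp5 had 192, 133 and 172 CPM, against 232, 261 and 388 CPM, also apart, with a log2 fold change of -0.86 ± 0.21 (edgeR, adjusted p = 0.0375). Here 2 of 10 members were called and 2.21% of genes. Among other matrix genes, Col5a1, for a collagen that nucleates fibrils (-1.03 ± 0.24, edgeR adjusted p = 0.0295), Serpinh1, the collagen chaperone (-1.22 ± 0.31, edgeR adjusted p = 0.0453), and Tgfbr2, a receptor of transforming growth factor beta (-0.97 ± 0.23, edgeR adjusted p = 0.0295), were lower.

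The sedentary Foxp3DTR+ library 2 stood apart, with 17342 genes detected, against 21186 and 22079 in the other two, and 8.01% of counts from mitochondrially encoded transcripts, against 5.21% and 5.15%. Without it 4 members were called, Tnc (-1.76), Igfbp5 (-0.85), Fn1 and Lum. The share of all genes called in that refit is not given here, so the rise in members called has no background beside it. The calls of Tnc and Igfbp5 also depended on other single libraries. Tnc was lost without library 1 of the sedentary (-1.41, edgeR adjusted p = 0.0537) or library 1 (-1.54, 0.0595) or 2 (-1.35, 0.134) of the trained group. Igfbp5 was lost without library 3 of the sedentary (-0.68) or library 1 (-0.98), 2 (-0.74) or 3 (-0.85) of the trained group, at adjusted p from 0.0579 to 0.281, and with library totals alone. The difference between genotypes in the training change was -1.22 ± 0.45 for Tnc (edgeR, adjusted p = 0.456) and -1.02 ± 0.30 for Igfbp5 (edgeR, adjusted p = 0.228). In that test 0 of 10 members were called by edgeR or DESeq2, 3 had an unadjusted p under 0.05, and 0.27% of genes were called.

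In Foxp3DTR+ muscle Postn had 18.8, 23.9 and 29.5 CPM after training, against 11.9, 5.89 and 19.6 CPM sedentary, overlapping (0.98 ± 0.33, edgeR adjusted p = 0.141). Lum had 59.6, 55.7 and 52.6 CPM after training in Foxp3DTR+, against 29.9, 39.9 and 35.1 CPM sedentary, apart but not called (0.62 ± 0.21, edgeR adjusted p = 0.144). Fn1 had 70.2, 78.0 and 80.7 CPM, against 103, 72.0 and 235 CPM sedentary, overlapping (-0.83 ± 0.27, edgeR adjusted p = 0.132). The other members in Foxp3DTR+ stood at log2 fold changes of 0.38 for Cilp, 0.33 for Bgn, -0.08 for Dcn, -0.23 for Sparc and -0.33 for Aebp1, none called. In Foxp3DTR- muscle Postn had 32.1, 34.4 and 30.6 CPM after training, against 18.7, 14.2 and 8.46 CPM sedentary. The trained libraries were close together and all above the sedentary ones, but the log2 fold change of 1.17 ± 0.32 did not pass (edgeR, adjusted p = 0.393). Cilp had 165, 130 and 114 CPM in trained Foxp3DTR- muscle, against 72.8, 64.7 and 74.3 CPM sedentary, apart, with a log2 fold change of 0.89 ± 0.23 (edgeR, adjusted p = 0.314). In the same mice Lum had 71.1, 83.6 and 78.3 CPM after training, against 61.8, 46.2 and 40.6 CPM sedentary, also apart (0.59 ± 0.20, edgeR adjusted p = 0.792). In the Foxp3DTR- comparison 0 of 10 members were called by edgeR or DESeq2, 4 had an unadjusted p under 0.05, and 0.103% of genes were called.

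Trained Foxp3DTR+ muscle was then set against trained Foxp3DTR- muscle. Cilp had 61.4, 90.3 and 97.5 CPM in Foxp3DTR+, against 165, 130 and 114 CPM in Foxp3DTR-, without overlap but not called (-0.66 ± 0.23, edgeR adjusted p = 0.311). Postn had 18.8, 23.9 and 29.5 CPM, against 32.1, 34.4 and 30.6 CPM, and Lum 59.6, 55.7 and 52.6, against 71.1, 83.6 and 78.3 CPM, both apart and not called. In all 9 of 10 members were lower in Foxp3DTR+, with a median log2 fold change of -0.40, against -0.0027 over all genes tested, and 0 were called by edgeR or DESeq2, 3 had an unadjusted p under 0.05, and 0.89% of genes were called. The 16 collagens were lower too, 16 of 16 with 0 called and a median of -0.57. The T and NK cell markers summed to 10.3 to 18.0 CPM in Foxp3DTR+, with 0 of 12 at 0, against 4.95 to 8.50 CPM in Foxp3DTR-, with 2 at 0, and their part in the members' values was not tested. In sedentary mice 0 of 10 members were called between the genotypes by edgeR or DESeq2, 2 had an unadjusted p under 0.05, and 0.0477% of genes were called, Igfbp5 having 232, 261 and 388 CPM in Foxp3DTR+, against 238, 179 and 147 CPM in Foxp3DTR- (0.67 ± 0.21, edgeR adjusted p = 0.604).

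Antibody to interferon gamma did not detectably move a member in trained Foxp3DTR+ mice. Of the 10, 0 were called by edgeR or DESeq2, 1 had an unadjusted p under 0.05, and 1.35% of genes were called. That member was Cilp, with 72.4, 114 and 84.4 CPM under aIFNg, against 142, 114 and 96.1 CPM under IgG (-0.38 ± 0.17, edgeR adjusted p = 0.442). Postn averaged 22.6 ± 8.12 CPM under aIFNg and 23.2 ± 10.1 CPM under IgG, and Tnc 8.73 ± 3.17 and 8.67 ± 2.20 CPM (SD, n = 3 each). Dcn was the steadiest, with 620, 599 and 564 CPM under aIFNg, against 654, 580 and 551 CPM under IgG (-0.01 ± 0.09). The other members stood at log2 fold changes of 0.23 for Aebp1, 0.09 for Igfbp5, 0.04 for Sparc, -0.17 for Lum, -0.20 for Bgn and -0.27 for Fn1.

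In aged mice no member was called, and the 2 libraries of a group differed widely. Bgn had 25.2 and 260 CPM under aIFNg, against 70.1 and 48.5 CPM under IgG, and Igfbp5 118 and 727, against 550 and 268 CPM. Standard errors of the log2 fold changes ran from 0.94 for Cilp to 1.31 for Dcn and Postn, and 0 of 10 members were called by edgeR or DESeq2, 0 had an unadjusted p under 0.05, and 0% of genes were called. Postn was low in all 4 libraries, at 1.77 and 3.17 CPM under aIFNg and 1.91 and 4.73 CPM under IgG, and its means of 2.47 CPM under aIFNg and 3.32 CPM under IgG were the lowest of the 22 groups. These aged libraries were a separate experiment from an unnamed muscle, so age cannot be told apart from experiment and muscle.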

How the data were processed

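Poly(A) RNA of whole frozen mouse muscle was sequenced from 2 ng of RNA per library, per the labels' protocols. The authors deposited 1 table of raw counts per gene, with reads aligned to mm10 by STAR 2.7.3a and counted with featureCounts, per the submitters' processing notes. Its version, strand setting and annotation were not given in the sources used here.

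Groups were taken from the sample labels. Counts were fitted with edgeR 4.0.16 (limma 3.58.1, R 4.3.3): TMM scaling, filterByExpr (count of at least 10, total of at least 15), 1 mean per group and the quasi-likelihood F test, with each experiment fitted alone and the 24 wild-type libraries also fitted together to compare muscles. P-values are two-sided and Benjamini-Hochberg adjusted over all genes tested, a call means an adjusted p under 0.05, and each ± beside a log2 fold change is its standard error. All 10 members were tested in each of 28 comparisons, and the rule names members first. Each share of genes called comes from the main edgeR fit at adjusted p. It is no background for counts of members at unadjusted p or under other settings. Other genes are named as the most correlated genes or as the called genes of smallest p of the matrix and growth factor lists. Some are ligands or receptors of a called member, or checks. Col3a1 and Col1a1 on day 7 in quadriceps and Col1a2 on day 1 in tibialis anterior were named although not called. Progenitor markers named beside a result were chosen after their values were seen. The members and lists were chosen with earlier results of these data known.

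The value in CPM is the count over the library total, and per kilobase it is divided by the union exon length in GENCODE vM21 (GRCm38), which 52936 gene symbols matched. Python 3.11.15 with pandas 2.3.3, numpy 2.4.6 and matplotlib 3.10.9 made the tables and figures. Library totals of 3359683 to 14445336 counts set the floor, and the floor covers counting error only. The standard errors come from the quasi-likelihood fit and include the spread between libraries. Fits were also run on simulated data, whose outcome is not given here and is not used as support. Alternatives were DESeq2 1.42.0, RLE factors, library totals alone, no low-count filter, mitochondrially encoded genes left out, a length and GC trend removed per library, the compared groups alone, a replicate block and leaving out each library.

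The quadriceps and tibialis anterior of a wild-type mouse share its number and so pair the libraries, although their deviations from the group means correlated only between -0.0329 and 0.0533. The block changed no member's call between the muscles. In the other experiments the labels give only a number. Within each group, no 2 libraries were alike within sampling noise, and libraries of different groups were not compared in this way. Where the labels do not say that libraries came from separate litters or days, p-values measure the spread between these libraries. A protein comparison of the proteoglycans was not made, as no protein sequences were used here.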

Additional observations from a re-analysis of the deposited data

Results flagged for a closer look

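In 2 members the change on day 1 after exercise differed between Foxp3DTR+ and Foxp3DTR- quadriceps, by a test of the difference itself. For Aebp1 the difference in log2 change was 1.47 ± 0.24 (edgeR, adjusted p = 0.0003). It ranged from 1.30 to 1.58 when single libraries were left out, each time with an adjusted p under 0.05, and was 0.62, no longer called, with the length and GC trend removed. For Cilp the difference was -0.78 ± 0.26 (edgeR, adjusted p = 0.0458). It was -0.50 and not called with library totals alone, -1.32 and called with the length and GC trend removed, and lost its call without 9 of 11 single libraries. Both differences use the 2 Foxp3DTR+ sedentary libraries, in which mitochondrially encoded transcripts took 21.4% to 23.5% of counts, and the part of that in the differences was not tested.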

How the results depend on the processing

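No called member reversed its direction under any alternative run. The share of all genes called under each alternative is not given here, so the counts of members below have no background beside them. DESeq2 called 2 members in quadriceps on day 1, 5 on day 7 (Aebp1, Bgn, Cilp, Igfbp5, Postn) and 2 between days 7 and 2, 2 in tibialis anterior on day 1 and 1 on day 2, and 1 in the day 7 difference between the muscles. With no filter on low counts, members called were 2, 2 and 6 in quadriceps on days 1, 2 and 7, 3 between days 7 and 2, 3 and 2 in tibialis anterior on days 1 and 2, and 1 and 2 in the differences between the muscles on days 2 and 7. It was also 1 in Foxp3DTR+ on day 7 against rest, 4 in trained Foxp3DTR+ and 2 in trained Foxp3DTR- muscle. With the length and GC trend removed it was 0 in tibialis anterior on day 1 and 1 in the day 1 difference between genotypes. Library totals gave 0 between the resting muscles (RLE factors also 0), 1 in the day 1 difference and 1 in trained Foxp3DTR+. With only the compared groups fitted it was 2 in quadriceps on day 1, 0 between days 7 and 2, 0 in trained Foxp3DTR+ and 1 in trained Foxp3DTR-. Leaving out mitochondrially encoded genes changed no call.

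Same-numbered libraries of the Foxp3DTR experiments did not deviate together (correlations of -0.098 to 0.0422 acute, -0.156 to 0.0999 in training, -0.0466 to 0.0129 with antibody). The replicate block left 1 member called in the day 1 difference between genotypes, and again 1 with the trend removed, and 2 between genotypes on day 7, where Sparc lost its call. In aged mice the correlation was -0.652, and with the numbers crossed, a choice made after seeing the data, 0 members were called.

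Leaving out each library gave these ranges of members called, again without the share of all genes called in each run. Between genotypes in the acute experiment they were 1 to 3 at rest, 2 to 4 on day 7, 1 to 2 for the day 1 difference and 0 to 1 for the day 7 difference. Against rest they were 4 to 5 in Foxp3DTR+ and 2 to 4 in Foxp3DTR- on day 1 and 0 to 3 in Foxp3DTR+ on day 7. In wild-type quadriceps they were 1 to 1, 0 to 1 and 1 to 4 on days 1, 2 and 7 and 0 to 2 between days 7 and 2. They were 0 to 1 in tibialis anterior on day 1, 0 to 1 between resting muscles, 0 to 1 for the day 7 difference between muscles, 0 to 4 in trained Foxp3DTR+ and 0 to 1 with antibody. The causes were not tested. Groups of 2 or 3 mice and, for Tnc and Postn, low counts limit what can be detected.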
